A study of Mus musculus with 12 samples.

Results

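The elements described are intergenic places of transcription initiation far from the start of any protein-coding gene. They were called by dREG, a classifier trained to find in run-on data the paired, divergent initiation of RNA polymerase II (Pol II). Peaks from 3 lists were joined where they overlapped or touched, namely those of leptonema with zygonema (LZ), of pachynema (P) and of diplonema (D). An element was kept when it lay on chromosomes 1 to 19, when its midpoint was in no GENCODE M21 gene, and when its edge was at least 1000 bp from every transcription start site (TSS) and at least 50 kb from the nearest TSS of a protein-coding gene. Of 63116 autosomal elements, 9639 met this rule, which is 15.3% (Wilson 95% interval 15.0 to 15.6). The median member lay 160004 bp from a protein-coding TSS (interval 155449 to 165545), and the farthest lay 2538715 bp away.

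The lists come from length extension chromatin run-on sequencing (leChRO-seq), which labels RNA on engaged RNA polymerases, Pol I to III, in isolated chromatin. The cells were wild-type spermatocytes of adult mice, C57Bl/6J or DBA/2J by the methods, enriched for a substage by sedimentation (STAPUT), so each substage is an enriched and not a pure population. There were 12 libraries, 4 for each substage, and the labels do not give the strain or animal behind each library. Each list was called on the pooled libraries of its substage, with no counts in it, so no value has a replicate error and no test between substages could be made. The pooled libraries need not be equally deep, and depth and substage cannot be told apart in the number of peaks called. Intervals below cover the counting of elements only, and neighbouring elements are not independent. The promoters of 77 of 81 meiosis and spermatogenesis genes held a peak in LZ, 78 in P and 76 in D. Over all autosomal protein-coding genes the shares were 60.9%, 61.3% and 52.5%. Called in every list were Sycp3 of the synaptonemal complex and Spo11, which makes meiotic DNA breaks. So were the spermatid genes Prm1, Prm2 and Tnp1, while Tnp2 was called in none. The calls of this list thus do not tell the substages apart. The study reports that in every fraction most contaminating cells were elongated spermatids. Of 10 marker genes of Sertoli, Leydig and peritubular cells, the promoters of Sox9 and Gata4 held a peak in every list and that of Wt1 in P and D, and the other 7 held none in any list. A promoter peak is no measure of expression, and the part of somatic cells in the elements below was not tested.

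Pol II initiates at enhancers as well as at promoters, usually in both directions, and the short RNAs made there are degraded quickly, so run-on methods see them better than steady-state RNA does. Intergenic initiation also comes from unannotated non-coding genes and from transposable elements, many of which carry promoters of their own. In the male germ line, A-MYB (Mybl1) is the transcription factor best known for switching on genes and piRNA precursors at pachynema, and RFX factors regulate genes of cilia and of spermatids.

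Example windows of 200 bp from 4 of the 7 call patterns are shown first, as the plus strand of GRCm38 (mm10) from 5′ to 3′. Within a pattern the window was chosen by score, while the patterns themselves were picked. Each is centred on the highest-scoring peak of an element, and the first 4 are the highest-scoring members called in P and D but not LZ, in all 3 lists, in LZ alone and in P alone. Capitals mark the letters GGCNGTT, the core of a MYB site, and GTTGCNA, one arm of an RFX site, read on either strand. The windows shown are not typical in these letters, since 10.0% of members hold the MYB and 13.5% the RFX letters. The top windows of LZ with P, the second commonest pattern, and of LZ with D are not shown and hold neither. That of D alone, also not shown, holds the MYB letters.

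P and D: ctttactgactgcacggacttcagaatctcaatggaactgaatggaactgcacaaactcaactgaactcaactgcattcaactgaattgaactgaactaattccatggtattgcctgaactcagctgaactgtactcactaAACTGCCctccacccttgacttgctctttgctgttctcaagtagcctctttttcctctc
all 3 lists: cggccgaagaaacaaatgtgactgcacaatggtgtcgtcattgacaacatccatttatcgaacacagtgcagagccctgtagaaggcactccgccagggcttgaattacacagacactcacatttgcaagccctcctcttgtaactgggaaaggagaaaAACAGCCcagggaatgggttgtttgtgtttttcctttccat
LZ alone: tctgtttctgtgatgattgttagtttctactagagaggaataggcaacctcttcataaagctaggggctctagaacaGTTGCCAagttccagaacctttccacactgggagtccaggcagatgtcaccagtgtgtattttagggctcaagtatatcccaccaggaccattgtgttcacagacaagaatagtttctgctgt
P alone: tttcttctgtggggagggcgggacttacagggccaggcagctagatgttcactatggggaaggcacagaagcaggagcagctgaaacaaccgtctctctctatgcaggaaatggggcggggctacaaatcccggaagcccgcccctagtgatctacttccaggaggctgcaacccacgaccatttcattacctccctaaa

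The element called in P and D spans chr5:58285101-58285590 (window chr5:58285301-58285500) and lies 562892 bp from Pcdh7, a protocadherin gene. It scored 1.323 in P and 1.111 in D, at the 98.9th and 95th percentile of those lists, and its window holds the MYB letters. The element called in all 3 lists spans chr2:73991161-73992740 (window chr2:73992001-73992200), 79835 bp from Atp5g3, a gene for a subunit of mitochondrial ATP synthase. It had the highest LZ score of any member, 1.506, beside 1.402 in P and 1.157 in D, and it also holds the MYB letters. The element called in LZ alone spans chr15:6028981-6029490 (window chr15:6029161-6029360) with a score of 1.173, holds the RFX letters, and lies 270298 bp from Dab2, an endocytic adaptor gene. The element called in P alone spans chr2:171947501-171948050 (window chr2:171947691-171947890) with a score of 1.122 and lies 95416 bp from Cbln4, a secreted synaptic protein gene. For the first 3 the nearest TSS of any kind belongs to a pseudogene. The highest-scoring members of the other patterns were chr2:28287021-28287970 in LZ with P (1.449 and 1.110), 81362 bp from Olfm1, chr3:58077871-58078470 in LZ with D (0.909 and 0.349), 229792 bp from Pfn2, and chr10:118778001-118778420 in D alone (0.611), 89879 bp from Dyrk2.

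Members were called more often in LZ and P than in D, by a margin that depends on how long the lists are. An LZ peak was present in 77.5% of them (interval 76.7 to 78.4), a P peak in 67.8% (66.8 to 68.7) and a D peak in 27.0% (26.1 to 27.9). Among all autosomal elements these shares were 78.2% in LZ, 72.1% in P and 39.0% in D, so the members were near the background in LZ and below it in D. The D list is the shortest of the 3, with 38603 peaks against 71107 in LZ and 68352 in P. With each list cut to 38603 peaks by score, 5370 elements met the rule and 73.7% held an LZ peak, 68.1% a P peak and 50.3% a D peak. The order of the substages was kept with lists of equal length, while the gap between P and D was much smaller. In lists of equal length all autosomal elements held an LZ peak in 72.7%, a P peak in 68.9% and a D peak in 65.4%. The order was thus that of all autosomal elements. Members were near this background in LZ and P and stayed below it in D.

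The commonest pattern was LZ alone, with 2882 members (29.9%, 29.0 to 30.8). LZ with P followed with 2574 members (26.7%), then all 3 lists with 1979 (20.5%) and P alone with 1580 (16.4%). P with D held 399 members (4.14%), D alone 185 (1.92%) and LZ with D 40 (0.415%). Over all autosomal elements LZ alone made up 24.3%, LZ with P 21.8%, all 3 lists 31.4%, P alone 14.8%, P with D 4.00% and D alone 3.04%. Members were thus below this background for all 3 lists and near it for P with D. This order depends on the unequal lists. With each list cut to 38603 peaks, all 3 lists came first with 31.1% (29.8 to 32.3), LZ with P had 20.7% and LZ alone 20.5%. D alone had 9.93%, P alone 8.51% and P with D 7.86%. In such lists all autosomal elements had, in the same order, 42.4%, 13.0%, 15.3%, 13.8%, 6.38% and 7.09%. Members thus stayed below the background for all 3 lists. In the full lists, 48.2% of members were called in 1 substage only (47.2 to 49.2), against 42.2% of all autosomal elements, 50.0% of the intergenic elements nearer than 50 kb to a protein-coding TSS and 52.5% of intronic ones. The difference from nearer intergenic elements was -1.76 points (-3.17 to -0.362) and that from intronic ones -4.33 (-5.60 to -3.07).

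The contrast with promoters was wide, and that with other distal elements narrow. Elements under 1000 bp from a TSS were called in all 3 lists in 49.4% of cases, 28.8 points more than members (Newcombe interval of the difference 27.8 to 29.8). Intergenic elements under 50 kb from a protein-coding TSS, 9893 in number, were called in all 3 lists in 20.7%, and the interval of the difference from members (-1.28 to 0.985 points) included 0. Members did differ from these nearer elements in D calls, by -2.04 points (-3.29 to -0.776), and in LZ calls, by 2.59 points (1.39 to 3.78). Against the 15960 distal elements in introns they were called in P more often, by 3.91 points (2.72 to 5.10).

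**Figure D1:**
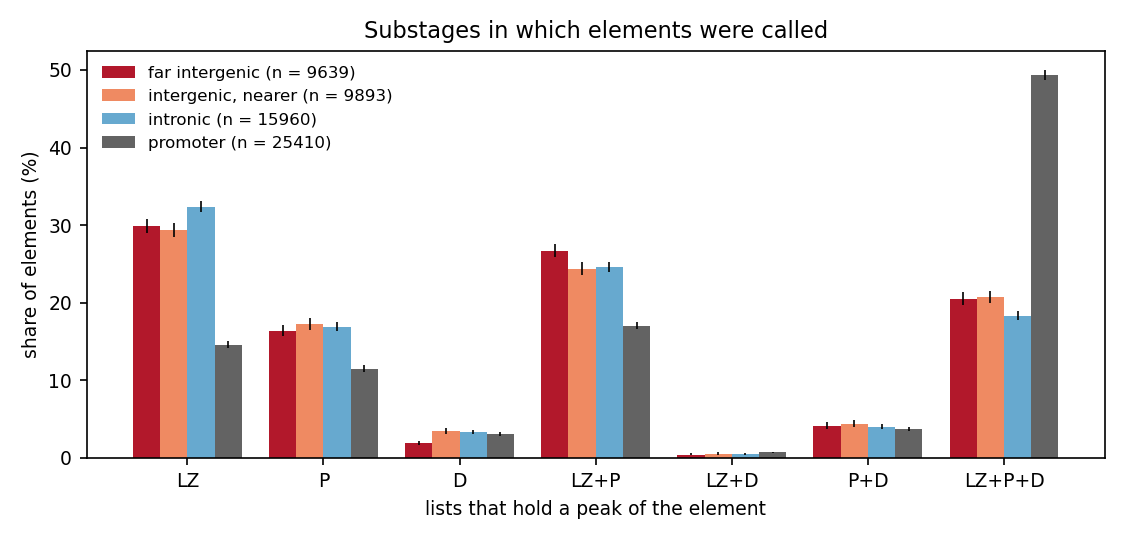
Share of elements (y axis, %) for each combination of lists that held a peak (x axis), in 4 classes of autosomal elements, with Wilson 95% intervals as error bars. Far intergenic elements follow the other distal classes closely, with 20.5% called in all 3 lists, and stand apart from promoters at 49.4%.

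The scores of members lay between those of other distal elements and those of promoters. The median of the highest dREG score, a number with no fixed range that rises with the strength of the initiation signature, was 0.531 (0.523 to 0.539) in members and 0.503 (0.496 to 0.510) in nearer intergenic elements. It was 0.490 (0.484 to 0.497) in intronic ones, 0.757 at promoters and 0.574 (0.570 to 0.579) over all autosomal elements. Scores are not scaled between lists, so ranks within a list were used for the substages. Of the 1000 highest autosomal peaks of LZ, 122 (12.2%, 10.3 to 14.4) lay in members, close to the 12.6% of all autosomal LZ peaks that did so. In P the share was 9.5% (7.83 to 11.5) of the top 1000 against 12% of the list, and in D 6.3% (4.95 to 7.98) against 8.89%. Members were thus less frequent among the strongest peaks of P and D than in those lists as a whole, and about as frequent in LZ. The lower share in P and D was not particular to members. Nearer intergenic elements held 5.6% of the top 1000 against 12.3% of the list in P, and 4.2% against 9.81% in D. Intronic ones held 11.6% against 18.3% in P and 5.2% against 13.5% in D.

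The highest-scoring members were called in every list. Besides the element near Atp5g3, the top LZ scores belonged to chr18:83942711-83943990 (1.487), 141085 bp from Tshz1, a zinc finger gene, and to chr1:103716161-103716870 (1.479), 1051659 bp from Cdh20, a cadherin gene. The highest P scores were 1.467 at chr11:37906651-37907390, 670687 bp from the teneurin gene Tenm2, 1.438 at chr4:105386461-105387480, 229114 bp from Plpp3, and 1.437 at chr1:91650051-91651180, 108971 bp from Asb1. In D they were 1.390 at chr15:45631621-45632810, 516701 bp from Kcnv1, a potassium channel subunit gene, 1.355 at chr16:58082261-58083540, 324903 bp from Dcbld2, and 1.347 at chr1:43656821-43657580, 73022 bp from 1500015O10Rik. These 9 sites sat above the 95th percentile of every list, with 3 exceptions, all in D. The Tshz1 site was at the 66.8th percentile there, the Cdh20 site at the 90.1st and the Plpp3 site at the 92.7th.

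The ranks of members called in more than 1 list are given within each list. Across the 4553 members with both an LZ and a P peak, the within-list percentiles had a Spearman rho of 0.738, given as a description since elements are not replicates. The median change from LZ to P was -5.35 percentile points, and 1045 members fell by more than 20 points while 406 rose by as much. From P to D, over 2378 members, the median change was -17.2 points, with 1068 members lower by more than 20 points and 70 higher. In nearer intergenic elements the median changes were -6.01 points from LZ to P and -15.4 from P to D, close to those of members, and at promoters 0.396 and -7.60. The lists differ in length and content, so these values describe places within the lists and not a change of the elements.

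How often a member was called depended on its score. Of the 2943 members with a highest score under 0.4, 91.0% were called in 1 list only, against 3.19% of the 2885 with a score of 0.8 or over. All autosomal elements were alike in this, with 89.3% and 2.12%. In this highest bin, 95.6% held an LZ peak, 97.5% a P peak and 61.0% a D peak. All autosomal elements of the bin held an LZ peak in 97.6% and a P peak in 98.2%, slightly above members. In the same bin a D peak was held by 61.5% of intronic, 65.4% of nearer intergenic and 76.9% of all autosomal elements. Members of this bin were thus close to intronic elements in D calls. The highest score is itself taken from the lists that called the element, so these bins describe the calls and are not independent of them.

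**Figure D2:**
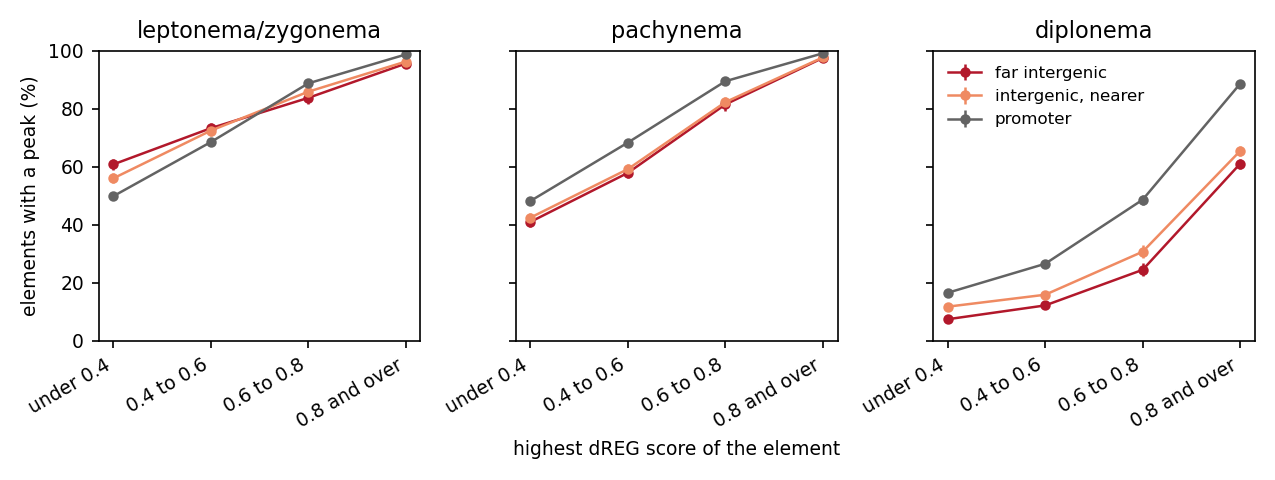
Share of elements with a peak in each substage (y axis, %) by the highest dREG score of the element (x axis, 4 bins), for far intergenic, nearer intergenic and promoter elements, with Wilson 95% intervals as error bars. At scores of 0.8 and over 61.0% of far intergenic elements held a diplonema peak, below the promoter elements of the same bin.

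The patterns differed in position and in sequence. The median distance to a protein-coding TSS was 175836 bp in members called in LZ alone, 140163 bp in P alone and 114177 bp in D alone. The letters GGCNGTT of MYB were found in 10.0% of member windows (9.44 to 10.6), against 9.79% of the windows of all autosomal elements. Yet by pattern the share ran from 5.83% (5.03 to 6.74) in members called in LZ alone to 27.8% (23.7 to 32.4) in those called in P and D. The difference was 22.0 points (17.7 to 26.7). With the shorter core CNGTTG the shares were 30.8% and 48.1%, a smaller ratio. Members called in P alone held the letters in 12.3%, those in all 3 lists in 12.2%, and those in LZ and P in 8.94%. Members called in P and D without LZ thus stood apart from every other large pattern, P alone and all 3 lists had about the same share, and LZ alone the lowest.

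The contrast between P with D and LZ alone was also examined by score and GC content. Within bins of the highest score, members called in P and D held the MYB letters in 16.4% under 0.4, 24.1% from 0.4 to 0.6, 29.2% from 0.6 to 0.8 and 37.1% at 0.8 and over. In the same bins the LZ-alone members stood at 5.32%, 6.90%, 5.15% and 4.35%. The windows of the P and D members were richer in GC, with a median of 49% against 45% in LZ alone. In windows with under 45% GC the MYB shares were 31.2% in P and D and 4.87% in LZ alone, and at 50% GC and over they were 22.7% and 5.95%. The bins are small, with 55 members of P and D under 0.4 and 69 of LZ alone at 0.8 and over. P with D had the higher share at each GC level and each score level examined. The order of the other patterns changed, since at 50% GC and over the share was 18.1% in all 3 lists, 12.4% in LZ with P and 12% in P alone.

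The high share in P and D was not confined to members, but it was highest in them. In the same pattern it was 20.9% in nearer intergenic elements, 21.2% in intronic ones and 15.0% at promoters. Members exceeded these by 6.95 points (1.13 to 12.8), 6.67 points (1.34 to 12.1) and 12.8 points (7.96 to 17.8). The classes were not matched for score or GC content in this comparison. In LZ alone members held the letters less often than nearer intergenic elements, by -1.89 points (-3.19 to -0.592). They also held them less often than intronic ones, by -1.27 points (-2.35 to -0.137). The interval of the difference from promoters in LZ alone (-2.13 to 0.230 points) included 0.

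The letters GTTGCNA of RFX had another distribution. They were found in 13.5% of member windows (12.8 to 14.2), against 11.1% of all autosomal windows, 13.0% of nearer intergenic ones and 9.13% at promoters, and the interval of the difference from nearer intergenic elements (-0.432 to 1.47 points) included 0. The share was 18.8% (17.2 to 20.6) in members called in all 3 lists and 16.9% in LZ with P, but 10.6% in LZ alone, 8.54% in P alone and 8.52% in P with D. In all 3 lists it was 18.5% in nearer intergenic and 17.6% in intronic elements, again with intervals of the difference that included 0. Over all scores, members called in all lists exceeded those of P alone by 10.3 points (8.08 to 12.5). The RFX contrast varied with the score. At 0.4 to 0.6 the letters were in 7.96% of members called in all 3 lists, 11.3% of LZ with P and 11.9% of LZ alone, and at 0.6 to 0.8 in 10.3%, 18.8% and 13.7%. At 0.8 and over they were in 20.7%, 21.5% and 17.4%. Members called in P alone held them in 10.2%, 9.80% and 13.0% of the same bins, the last with 23 members. In each of these bins the intervals of all 3 lists and P alone overlapped. At matched scores the higher share in all 3 lists than in LZ alone was thus not seen below 0.8, and above it the intervals of both overlapped. In lists of equal length the shares were 20.6% in all 3 lists and 16.7% in LZ alone. The MYB and RFX letters can share the bases GTT, and of 282 members with both, 139 had them on shared bases.

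**Figure D3:**
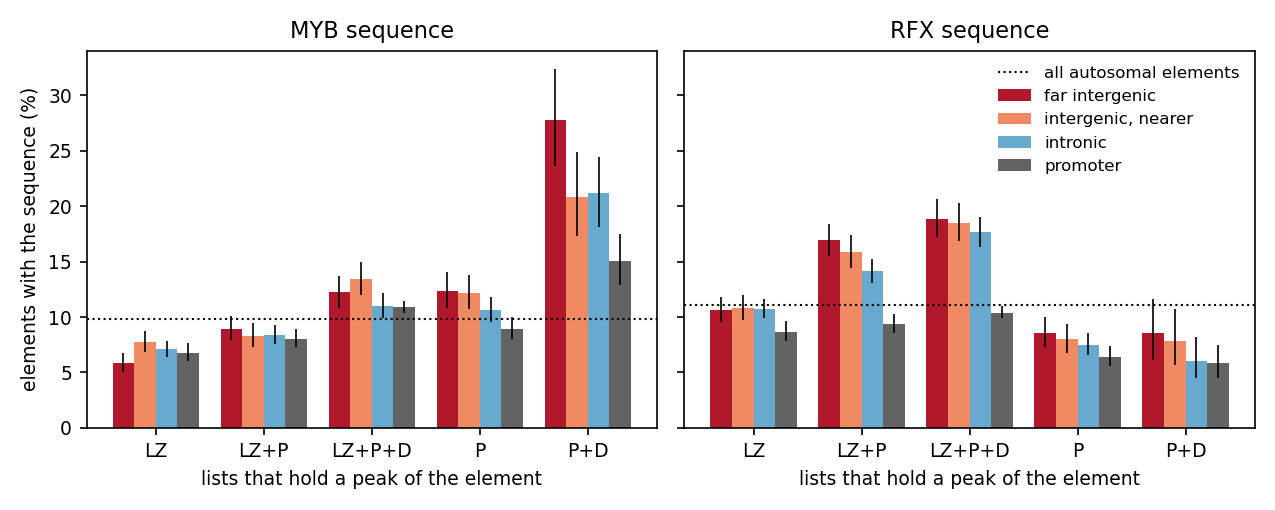
Share of elements whose 200 bp window holds the MYB (left) or RFX (right) letters (y axis, %) by the lists that held a peak (x axis), in 4 classes, with Wilson 95% intervals and the share in all autosomal elements as a dotted line. The MYB share of far intergenic elements rises from 5.83% in LZ alone to 27.8% in P and D, while the RFX share is highest, at 18.8%, in elements called in all 3 lists.

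Of 10 further sequences counted, 4 with a CG in the core were rarer in members than at promoters or over all elements. The GC box of SP factors (GGGCGG) was in 5.31% of member windows against 34.7% at promoters, the NRF1 letters (GCGCNTGCG) in 0.965% against 6.08%, the ETS letters (CCGGAAGT) in 0.830% against 2.02% in all elements, and the CREB letters (TGACGTNA) in 1.40% against 3.12% at promoters. Intronic elements were similar to members in 3 of them, with 0.771% for NRF1, 0.833% for ETS and 1.54% for CREB, all with intervals of the difference that included 0. The SP, NRF1 and ETS letters were more frequent in P and D than in LZ alone, at 8.02% against 3.33%, 2.76% against 0.347% and 3.01% against 0.173%. The TATA letters (TATAAA) were in 12% of members and 5.99% of promoters, the DMRT letters (ACANTGT) in 8.92% and 4.67%, and the AP-1 letters (TGANTCA) in 7.81% and 4.83%. Nearer intergenic elements held the DMRT letters in 8.37% and the AP-1 letters in 8.19%, and the intervals of both differences from members included 0. They held the TATA letters in 10.7%, which was 1.34 points below members (0.450 to 2.23). For the TATA, DMRT and AP-1 letters the difference between P and D members and LZ-alone members had an interval that included 0. The CTCF letters (CCAGNNGGC) were in 3.31% of members, the YY1 letters (AANATGGC) in 5.66% and the NF-Y letters (CCAATCA) in 5.52%, beside 5.07%, 4.27% and 5.00% of all autosomal elements. Against nearer intergenic elements members were higher in YY1 by 1.73 points (1.13 to 2.34) and differed in CTCF by -1.20 (-1.74 to -0.656). Members were AT-rich beside promoters, with a median GC of 46.5% against 56%, and 21.4% of their windows had no CpG at all against 5.96%. Other distal elements were nearer to members, with a median GC of 48.5% in nearer intergenic and 47% in intronic ones and no CpG in 14.8% and 18.2%.

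A minority of members lay on repeated sequence, though more than in the other classes. The reference genome marks interspersed and simple repeats in lower case, called soft-masked. At least 50% of the window was soft-masked in 24.6% of members (23.8 to 25.5), against 18.9% of nearer intergenic, 14.5% of intronic and 4.88% of promoter elements. The difference from nearer intergenic elements was 5.70 points (4.54 to 6.85). The ground itself was more repetitive than the members, since 39.0% of the bases of the far territory were soft-masked and the member windows averaged 29.0%. By pattern the share was highest in LZ alone, at 30.7%, and lower in P alone at 19.7% and in P with D at 16.8%.

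Comparing the windows with each other showed which members share sequence. At 80% identity over at least 100 bp, 2102 members (21.8%) fell into 116 groups of 2 or more. The 10 largest groups took in 16.8% of members, 9.69% of nearer intergenic, 7.34% of intronic and 1.65% of promoter elements. The groups were built and ranked on members, and the other classes only matched to them, which by itself favours a higher share in members. No repeat annotation was used, so the groups are known only by sequence and are numbered by size. The 5 described were picked from the 10 largest after their values were seen. Reads from near-identical copies can be placed at the wrong copy, and how reads with several matches were treated before peaks were called is not given for leChRO-seq in the sources used here, although the study counts its depth in uniquely mapped reads.

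Group 1, with 556 members on all 19 autosomes, was an LZ group of weak peaks. LZ alone took 337 of them (60.6%, 56.5 to 64.6), the median highest score was 0.390, and the median window was 99% soft-masked. Weak members were often called in LZ alone in general, 53.7% of all members scoring under 0.4 and 39.6% of those at 0.4 to 0.6. An example window has 23637 copies on the autosomes, of which 2.35% overlapped an element of any class. Group 2, with 468 members, was strong in comparison, with a median score of 0.795, and 93.2% of it held an LZ peak, 75.6% a P peak and 37.2% a D peak. It held the RFX letters in 63.7% of members (59.2 to 67.9) and the MYB letters in 32.1%, and both in 29.9%. Its example has 1859 copies, and 21.5% of them overlapped an element. Group 7, with 57 members, had a like make-up, with the RFX letters in 64.9%, a median score of 0.779, and 37.2% of 331 copies overlapping an element.

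The examples of groups 2 and 7 are shown because the RFX letters were in most members of both groups. They were chosen as the members with most partners in their group, and capitals mark the same letters as before.

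group 2: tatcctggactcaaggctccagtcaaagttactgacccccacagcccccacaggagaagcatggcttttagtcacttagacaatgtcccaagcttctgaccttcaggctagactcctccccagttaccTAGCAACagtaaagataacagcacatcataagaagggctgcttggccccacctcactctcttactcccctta
group 7: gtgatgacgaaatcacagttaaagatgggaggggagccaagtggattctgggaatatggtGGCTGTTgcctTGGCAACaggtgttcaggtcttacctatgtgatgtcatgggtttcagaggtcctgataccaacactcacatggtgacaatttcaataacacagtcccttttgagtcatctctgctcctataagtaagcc

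The group 2 example comes from chr11:51159111-51159370 (window chr11:51159181-51159380), 61103 bp from Gm12569, was called in LZ alone with a score of 0.540, and holds the RFX letters. The group 7 example comes from chr10:66844051-66844980 (window chr10:66844531-66844730), 189652 bp from Reep3, was called in LZ and P with scores of 0.562 and 0.566, and holds both sets of letters. Group 2 alone held 22.9% of the members with the RFX letters and 15.5% of those with the MYB letters. Among members in no group the RFX share was 13.7% in those called in all 3 lists and 14.3% in LZ with P, beside 10.3% in LZ alone and 8.32% in P alone. The MYB share of ungrouped members was 28.4% (23.8 to 33.4) in P with D and 5.74% in LZ alone. The MYB contrast between P with D and LZ alone was therefore as large among members in no group. The RFX contrast between all 3 lists and LZ alone was smaller there. Members in no group can still lie on repeats.

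Group 3 and group 6 were rich in other letters, though not alone in this. Among the 10 largest groups the NF-Y letters were also in 85.7% of group 9, and the YY1 letters in 64.1% of group 8. Group 3, with 208 members, held the NF-Y letters in 69.2% and 27.1% of all members with those letters, and it was called in P with D in 9.13%. Over all members the NF-Y share was 10.8% in P with D and 4.79% in LZ alone, a difference of 5.99 points (3.18 to 9.49). Outside all groups the NF-Y share was 4.68% in P with D and 3.01% in LZ alone, with intervals that overlap. Of the 62 members of group 6, 90.3% held a P peak and 64.5% an LZ peak. It held the YY1 letters in 87.1% and the TATA letters in 45.2%, with a median of 12 CpGs in a window where the median member has 2. Of the 1612 autosomal copies of its example, 7.13% overlapped an element. Among the 10 largest groups the share with an LZ peak was lowest in group 9, with 35 members, at 45.7%, where 85.7% held a P peak. Groups 8 and 9 are named outside the 5 after their values were seen.

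**Figure D4:**
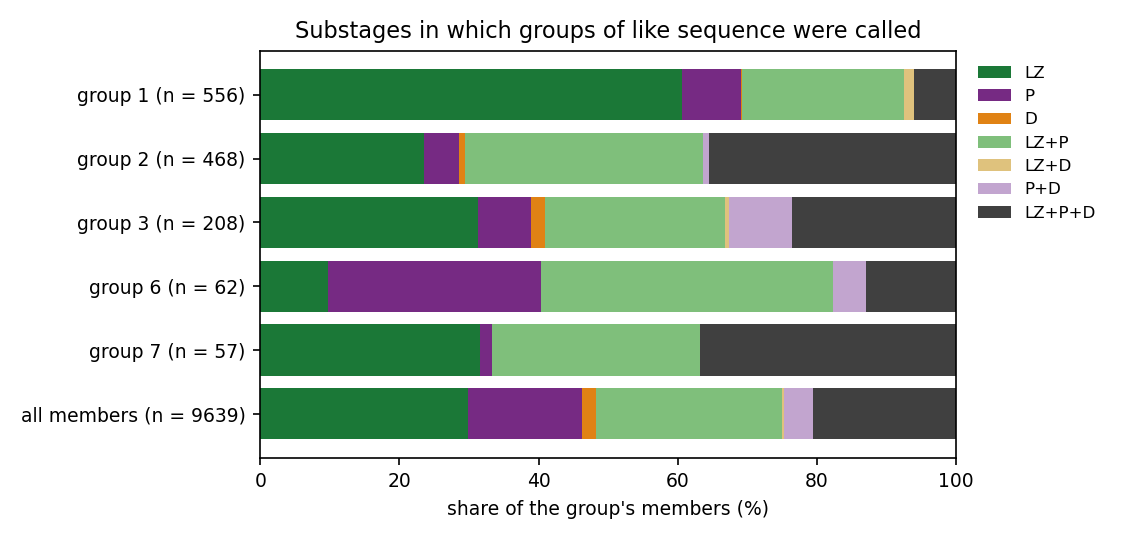
Share of members (x axis, %) by the lists that held a peak, for 5 groups of members with like sequence and for all 9639 members (y axis). Group 1 is mostly called in LZ alone (60.6%), groups 2 and 7 are called most often in all 3 lists, and group 6 has few members called in LZ alone (9.68%).

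Some traits of members differed with distance. An LZ peak was held by 73.9% of the 3014 members at 50 to 100 kb from a protein-coding TSS and by 83.7% (79.7 to 87.0) of the 398 members at 1 Mb and over. The share with a P peak went from 69.7% to 64.8% and that with a D peak from 28.6% to 28.9%, and for both the intervals of the first and last bins overlapped. Windows at least 50% soft-masked made up 19.2%, 21.5% and 23.9% of the 3 bins up to 500 kb, then 41.7% at 500 kb to 1 Mb and 47.5% beyond, while median GC went from 48% to 43.5%. The MYB share was 10.7% in the nearest bin and 12.1% in the farthest, with overlapping intervals, and the median score 0.522 and 0.566. The share of mostly soft-masked windows was thus stepped past 500 kb, while LZ calls rose from bin to bin.

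**Figure D5:**
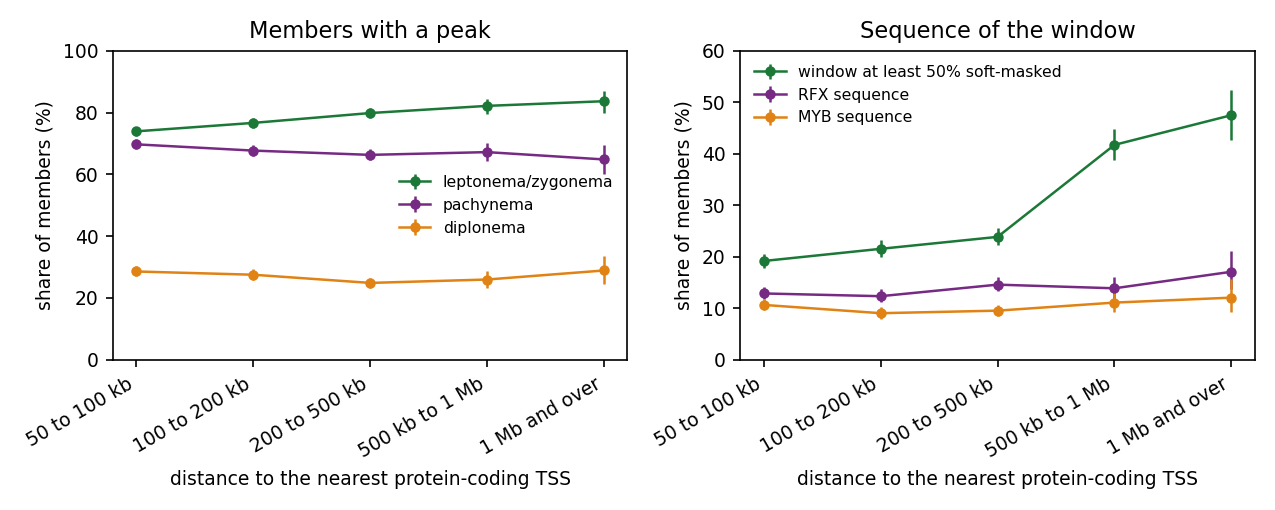
Share of members (y axes, %) with a peak in each substage (left) and with a mostly soft-masked window, the RFX letters or the MYB letters (right), by distance to the nearest protein-coding TSS (x axes, 5 bins), with Wilson 95% intervals as error bars. LZ calls rise from 73.9% to 83.7% and mostly soft-masked windows from 19.2% to 47.5%, with less change in the other shares.

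The limit of 50 kb marked no step. The 791 members at 50 to 60 kb held LZ, P and D peaks in 72.9%, 71.2% and 27.9%, and the 1027 intergenic elements at 40 to 50 kb in 73.9%, 70.7% and 31.0%. Their median scores were 0.537 and 0.532. The 5 farthest members all lay in a gene-poor stretch of chromosome 14 nearest to Pcdh20 or Pcdh9, which are protocadherin genes, at 2282758 to 2538715 bp from a protein-coding TSS. The farthest, chr14:91010111-91010720, was called in all 3 lists with scores of 0.381 in LZ, 0.531 in P and 0.333 in D. It and the 4 others all belonged to sequence groups.

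The far territory itself was large and thinly filled. It covered 784 Mb, or 32.7% of the sequenced autosomes, with 12.3 members per Mb, against 23.8 elements per Mb in the intergenic ground nearer to genes. Members were the sparser on 19 of 19 autosomes, from 10.0 per Mb on chromosome 3 to 15.1 on chromosome 11. Another member lay within 20 kb of 61.8% of members (60.8 to 62.7) and within 5 kb of 46.3%. With peaks up to 500 bp apart joined, 42.2% had another within 20 kb, and no share expected from scattered placement was computed. Joined at gaps of at most 20 kb they formed 2238 clusters of 2 or more, of which 138 had at least 5 members.

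The 5 largest clusters lay near genes of different kinds. The largest, at chr18:82786881-82841020 near the zinc finger gene Zfp516, had 14 members, of which 7 held an LZ peak, 11 a P peak and 5 a D peak. It differed from the members as a whole in having more P than LZ elements. The next 5 had 9 members each, and by the highest score in them the first 4 were those near Dyrk2 (chr10:118758901-118797680), Etnk1 (chr6:143361621-143432150), Klf13 (chr7:64021421-64066270) and Gm11084 (chr2:73037381-73083040). Their LZ, P and D peaks were held by 5, 5 and 3 members near Dyrk2, 8, 6 and 4 near Etnk1, 8, 8 and 4 near Klf13, and 8, 5 and 3 near Gm11084. The cluster near Klf13, a Krüppel-like factor gene, overlaps the lincRNA genes Gm45054 and Gm20670, in which none of its members has its midpoint.

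The nearest annotated gene of any kind was mostly non-coding, which the rule favours, since it keeps members 50 kb from protein-coding TSSs and only 1000 bp from others. The TSS closest to a member belonged to a processed pseudogene in 35.9%, a lincRNA in 28.7% and a protein-coding gene in 7.86%, at a median of 36696 bp. Only 8.71% lay under 5 kb from any TSS, and 40.5% lay at least 50 kb from all. By RefSeq, a second annotation of the same build, 13.7% of members had their midpoint in a gene, 7.74% were under 1000 bp from a start, and 81.2% kept the rule. A further limit, under 50 kb from a RefSeq protein-coding start, was met by 3.05%. For the 13.7% with their midpoint in a RefSeq gene the word intergenic depends on the annotation. The other members that lost the rule did so on distance to a start.

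By nearest protein-coding TSS, 2464 genes accounted for all members, with a median of 3 each. The 10 with most were led by Reep3, an endoplasmic reticulum protein gene, with 31 members, followed by the adhesion receptor gene Adgrl2 with 28 and by Pcdh7 with 26. Cdh9, a cadherin gene, and Med13l, for a subunit of the Mediator kinase module, had 25 each, as did Zfp516. Efna5, for an ephrin ligand, and Flrt2, for a transmembrane protein, had 23 each, and Pkdcc, a secreted kinase, and Tpm3-rs7 had 22 each, a number that Cdh2 shared. Nearest says nothing of regulation, and the promoters of Pcdh7, Cdh9 and Efna5 held no peak in any list while those of Reep3 and Med13l held one in all 3. Over all members the promoter of the nearest gene held a peak in LZ in 68.9%, in P in 71.2% and in D in 57.7%. Of all autosomal protein-coding genes 60.9%, 61.3% and 52.5% did so. The units differ, since the shares of members count a gene once for each member nearest to it. Nearer intergenic elements gave 69.3%, 71.0% and 60.8%. These shares hardly followed the pattern of the member, since the nearest promoter held an LZ peak for 69.6% of members called in LZ alone and for 72.4% (67.8 to 76.6) of those called in P and D.

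The genes of both lists were counted by the members nearest to them. Of 212 developmental transcription factors, which regulate embryonic patterning, 77 were nearest to a member, 36.3% of the list against 11.9% of all autosomal protein-coding genes. They took 371 members, or 3.85% (3.48 to 4.25), where the list makes up 1.02% of the genes. The count was led by Sox9 with 16 members, Nr2f2 and Sall1 with 14 each, Meis1 with 13 and Gli3 with 12. The promoters of Sox9, Nr2f2, Meis1 and Gli3 held a peak in all 3 lists and that of Sall1 in none. Among nearer intergenic elements the same list took 1.71%. Of 81 meiosis and spermatogenesis genes, 7 were nearest to a member, 8.64% of the list beside the same 11.9% of all genes. They took 16 members or 0.166% (0.102 to 0.269), where the list makes up 0.390% of genes, and the list took 0.364% of nearer intergenic elements. The 7 were Rfx3 with 4 members, Hfm1, Ccdc39 and Ythdc2 with 3 each, and Tnp1, Mei4 and Spata16 with 1 each. The amount of far territory around each gene was not taken into account, and no test was made of either list.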

How the data were processed

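Spermatocytes enriched for 3 substages of prophase I were profiled by leChRO-seq, with 4 libraries per substage. Reads were deduplicated on their molecular identifiers by the authors, who then trimmed them with cutadapt, mapped them to mm10 with BWA and ran dREG at its default settings on the pooled libraries of each substage. The dREG version is not given in the sources used here, and the labels say single-end where the methods say paired-end sequencing. For each peak the authors deposited a dREG score, not scaled between lists, and a p-value, at most 0.05. Scores ranked and filtered peaks, and the p-value only filtered them in an alternative. The study states depths and library normalization factors, which are not used here. The lists hold no counts, so the number of reads behind each peak is unknown.

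The 178062 peaks gave 65172 merged elements, 63116 of them autosomal. Distances ran from the edge of an element to the TSSs of 141767 GENCODE M21 transcripts. Windows of 200 bp were centred on the highest-scoring peak. Letters were searched on both strands, GC and soft-masked shares were read from GRCm38, and windows were compared with blastn of BLAST+ 2.17.0. Shares carry Wilson 95% intervals, differences Newcombe intervals and medians order-statistic intervals. Merging, distances, letter search and intervals were tested on simulated data. The scripts ran under Python 3.11.15 with pysam 0.24.0, scipy 1.17.1, matplotlib 3.10.9, pandas 2.3.3 and numpy 2.4.6.

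The sites named are the 3 highest-scoring of each list, the 5 farthest, the highest-scoring of selected call patterns, the 5 largest clusters, 5 sequence groups, and the 10 genes nearest to most members with genes of 2 lists (212 developmental transcription factors, and 81 of 89 meiosis genes that matched an autosomal protein-coding gene). Members, lists, letters and tests were chosen with earlier results of these data known, and the somatic marker genes and GC bins were added during the work.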

Additional observations from a re-analysis of the deposited data

Results flagged for a closer look

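The same rule applied to the sex chromosomes, which were not part of the set, found 389 elements on chromosome X and 31 on chromosome Y. These lie outside the main measurement. On X, where transcription is silenced in pachynema, 76.9% held a leptonema/zygonema peak (72.4 to 80.8), 66.6% a pachynema peak (61.8 to 71.1) and 30.1% a diplonema peak (25.7 to 34.8), and the median highest score was 0.614. The autosomal members were close in calls, at 77.5%, 67.8% and 27.0%, with a median highest score of 0.531. On Y the shares were 77.4%, 58.1% and 29.0%, and 90.3% of the windows were at least 50% soft-masked against 41.4% on X. The difference from the autosomal members was not tested.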

How the results depend on the processing

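No paired analysis was possible because the pooled lists carry no replicate numbers, and leaving out a library was not possible either. Of 60 values recomputed, 22 stayed within the interval of the main value or, for counts, within 1.5 times it. With peaks scoring at least 0.5, 5414 elements met the rule, with leptonema/zygonema, pachynema and diplonema peaks in 82.3%, 71.3% and 26.0% and 1 substage only in 41.1%. Lists of equal size gave 73.7% in leptonema/zygonema, 50.3% in diplonema and 38.9% in 1 substage only. Joining peaks up to 500 bp apart gave 80.5%, 72.0%, 30.6% and 41.2%, and 42.2% with another member within 20 kb. That share was 46.3% within 5000 bp and 76.2% within 50000 bp. At least 100000 bp from protein-coding TSSs, 79.2% held a leptonema/zygonema peak. Median GC was 45.7% over whole elements and 45.8% over 250 bp either side, and the median soft-masked share 18.1% and 18% against 14%. The MYB letters stood at 5.50% within 50 bp, 19.4% within 250 bp, and 34.8% as CNGTTG. The following were chosen after seeing the data. Lists of equal size had 20.5% of members in leptonema/zygonema alone and 31.1% in all 3 substages. In pachynema with diplonema the MYB shares were 16.3%, 41.6% and 48.1% under the same changes, and in leptonema/zygonema alone 3.12%, 13.4% and 30.8%, with 7.73% for scores of at least 0.5 and 8.19% for lists of equal size. The RFX share of members in all 3 lists was 10.8% within 50 bp, 27.3% within 250 bp, 14.8% in windows under 50% soft-masked and 13.7% outside sequence groups. At 90% identity 1252 members were in groups. The causes of these shifts were not tested, apart from wider or narrower windows and limits, which change the number of bases or neighbours searched.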
